A study of Mus musculus with 2 samples.

Results

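PPARγ peaks of mouse TH2 cells were examined where the DNA held a binding sequence for AP-1 and no direct repeat of the kind that PPARγ recognises together with RXR. A peak entered the set when its centre lay within 100 kb of the transcription start site (TSS) of a protein-coding gene, outside promoters (1000 bp upstream to 100 bp downstream of any TSS) and outside annotated repeats. The 200 bp around the centre also had to hold the 7 bp AP-1 sequence TGACTCA, on either strand, and no DR1. DR1 was taken as AGGTCANAGGTCA on either strand with at most 2 mismatches in its 12 fixed bases. Of 2537 deposited peaks, 2124 lay within 100 kb of a TSS, 1932 of these lay outside promoters, and 1608 of these had a centre outside repeats. AP-1 was present in 303 of the 1608, and 255 of the 303 had no DR1. These 255 AP-1 peaks, 10.1% of all peaks, are described here, and no measured value beyond the peak calls served to choose them. The remaining distal peaks outside repeats served for comparison: 329 with DR1, of which 48 held AP-1 as well, and 1024 with neither motif.

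The ChIP group was 1 sample of C57BL/6J naive CD4 T cells, activated and polarised towards TH2. Retrovirus carrying Pparg with a TY1 epitope tag was added on days 1 and 2, and on day 4 chromatin was taken for precipitation with anti-TY1. The map therefore describes the introduced, tagged receptor in transduced cells. The input group was 1 sample of the same strain and cell description, with no antibody, which the authors used as background. The deposited header lists 10229438 tags, of which 54617 (0.53%) lay in peaks, with a mean of 21.5 tags per peak and a threshold of 8 tags. Peak strength is not held in the rows of the file, so peaks are counted and not ranked, and no replicate gives an error between cultures. All p-values below take peaks, sites or windows as units, with Fisher's exact test, two-sided, unless another test is named, and all intervals are 95% intervals that cover counting error only.

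PPARγ is a ligand-activated nuclear receptor best known as a regulator of fat cell differentiation and lipid storage, and its dimer with RXR typically binds DR1. AP-1 is a family of dimers of FOS, JUN, BATF and related bZIP proteins that bind TGACTCA. In T cells AP-1 is induced by T cell receptor and MAP kinase signalling and acts with NFAT and IRF factors on cytokine genes. The file holds no measurement of AP-1, so TGACTCA here is a sequence match and not an observed binding event.

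The windows below show the AP-1 peaks themselves, because the findings turn on what stands around the site. Each is 200 bp long and comes from the peak nearest to the TSS, for the 4 genes ranked first by number of AP-1 peaks and for the leading gene of 5 lists of T cell genes. All are written 5′ to 3′ on the plus strand of mm10 (GRCm38), with the AP-1 sequence in capitals.
Ifi47, chr11:49085588-49085787: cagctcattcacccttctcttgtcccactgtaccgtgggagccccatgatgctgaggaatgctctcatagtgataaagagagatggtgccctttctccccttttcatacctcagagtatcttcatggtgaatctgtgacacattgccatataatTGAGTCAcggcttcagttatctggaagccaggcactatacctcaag
Inpp4b, chr8:81867098-81867297: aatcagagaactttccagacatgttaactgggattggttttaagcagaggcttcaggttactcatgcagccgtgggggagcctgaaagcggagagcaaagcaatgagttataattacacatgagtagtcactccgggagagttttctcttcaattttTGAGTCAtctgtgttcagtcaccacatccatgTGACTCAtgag
Tnfsf4, chr1:161376207-161376406: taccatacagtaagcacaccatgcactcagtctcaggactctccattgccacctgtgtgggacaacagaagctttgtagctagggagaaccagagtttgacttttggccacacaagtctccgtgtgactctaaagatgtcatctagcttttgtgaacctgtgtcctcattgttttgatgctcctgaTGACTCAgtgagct
Il10, chr1:131000424-131000623: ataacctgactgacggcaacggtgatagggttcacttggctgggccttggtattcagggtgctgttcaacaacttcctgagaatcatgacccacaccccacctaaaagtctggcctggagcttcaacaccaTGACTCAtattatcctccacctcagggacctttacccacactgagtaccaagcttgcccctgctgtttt
Maf, chr8:115726368-115726567: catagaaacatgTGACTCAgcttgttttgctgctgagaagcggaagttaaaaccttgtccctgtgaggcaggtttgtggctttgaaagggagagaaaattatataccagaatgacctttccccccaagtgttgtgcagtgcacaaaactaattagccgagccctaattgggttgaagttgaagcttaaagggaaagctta
Fyn, chr10:39376838-39377037: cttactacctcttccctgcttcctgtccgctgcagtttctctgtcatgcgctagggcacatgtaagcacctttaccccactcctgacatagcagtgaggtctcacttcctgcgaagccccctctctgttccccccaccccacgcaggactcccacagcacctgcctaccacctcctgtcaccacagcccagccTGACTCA
Il1rl1, chr1:40413116-40413315: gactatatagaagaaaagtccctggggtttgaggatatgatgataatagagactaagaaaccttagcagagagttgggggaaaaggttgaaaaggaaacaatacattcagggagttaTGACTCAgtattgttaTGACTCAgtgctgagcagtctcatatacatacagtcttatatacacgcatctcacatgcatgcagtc
Hif1a, chr12:73842268-73842467: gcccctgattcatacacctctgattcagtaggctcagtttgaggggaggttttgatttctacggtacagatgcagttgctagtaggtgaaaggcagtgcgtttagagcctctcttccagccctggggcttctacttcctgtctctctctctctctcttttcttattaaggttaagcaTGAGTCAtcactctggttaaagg
Rasa2, chr9:96593007-96593206: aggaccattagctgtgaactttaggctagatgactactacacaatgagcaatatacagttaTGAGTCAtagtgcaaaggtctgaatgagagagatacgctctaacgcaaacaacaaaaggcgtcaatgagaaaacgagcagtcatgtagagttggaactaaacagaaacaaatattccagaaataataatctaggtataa
The place of the site differed from window to window, from 20.5 bp off the centre in the Il1rl1 window to 96.5 bp in the Fyn window. The Inpp4b and Il1rl1 windows held 2 sites each. The windows of Tnfsf4, Maf, Fyn and Rasa2 came within 3 mismatches of a DR1, the closest the selection allows, those of Ifi47, Inpp4b, Il10 and Hif1a within 4, and that of Il1rl1 within 5.

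The first question was where in the window the AP-1 site stood, since the selection asked only for a site somewhere in the 200 bp. The 255 peaks held 286 AP-1 sites, with 1 site in 226 peaks, 2 in 27 and 3 in 2. The site nearest to the peak centre lay a median of 44.5 bp away (quartiles 19.5 and 67 bp), and in 82 peaks it lay within 25 bp. Sites within 50 bp of the centre numbered 162, against 124 between 50 and 100 bp. Per base the inner range held 1.23 times as many (interval 0.966 to 1.56), which did not pass an exact binomial test (two-sided p = 0.0864). With the file split at its middle row, the upper rows alone gave a log2 ratio of 0.52, which passed (p = 0.0245, exact binomial test), and the lower rows gave −0.017 (p = 1, exact binomial test). The meaning of the row order is not given in the sources used here. Among named genes, the site lay 1.5 bp from the centre in a Bach2 peak and in the Peli1 peak, and 2.5 bp in the Gfi1 peak, whereas it lay 84.5 bp away in the Maf peak. The selection required a site inside the window, so a lower density outside it follows from the rule and is no finding. Beyond the window the density was 0.471 sites per kb at 100 to 200 bp and 0.224 at 500 to 1000 bp. The peaks with neither motif gave 0.532 and 0.207 over the same ranges.

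**Figure D1:**
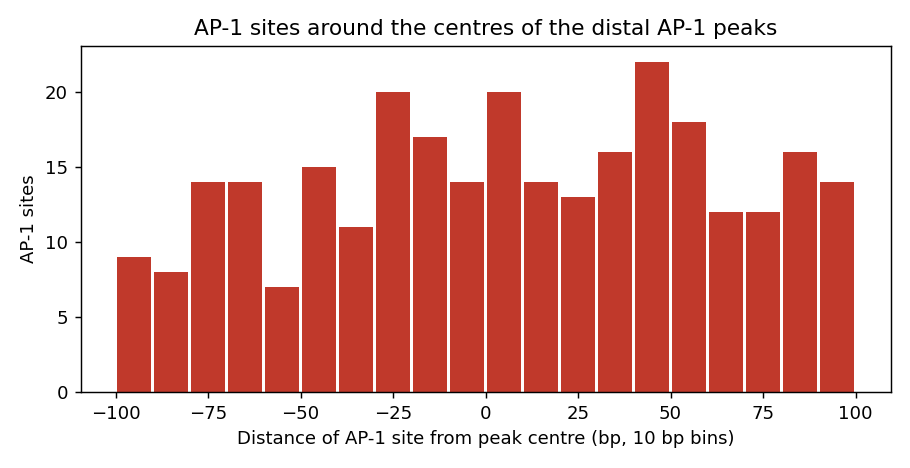
AP-1 sites (vertical axis, number of sites) by distance from the peak centre (horizontal axis, bp, in 10 bp bins) over the 255 AP-1 peaks. Sites spread over the whole window, with 162 within 50 bp of the centre and 124 farther out.

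The peaks with more than 1 site were looked at next, a comparison chosen after the data were seen. The 29 such peaks, 11.4% of the set, gave 31 pairs of adjacent sites. Their starts lay a median of 42 bp apart, from 11 to 184 bp. Examples were the peaks at Il1rl1, which encodes the IL-33 receptor chain ST2, and at Braf, a kinase of the MAP kinase cascade. Another was the peak at Gfi1, which encodes a transcriptional repressor and is counted below among the TH2 genes. A second site within 40 bp accompanied 14 of the 255 nearest sites (5.49%) and 4201 of 195554 AP-1 sites elsewhere in the genome (2.15%). Those other sites met the same location rule, had no DR1 within 100 bp and lay over 500 bp from any peak. The log2 odds ratio was 1.40 ± 0.40 (SE; adjusted p = 0.00382, Fisher exact, two-sided). This is 1 of 8 comparisons added after the main results, of which 50% passed.

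The genome held 202254 AP-1 sites under the location rule, here applied to the site itself and with DR1 not considered. The 286 sites in the AP-1 peaks, where the rule applied to the peak centre, equal 0.141% of that number. The bases beside the site were compared between the 286 peak sites and the 195554 others to ask whether the peak sites had a sequence of their own. With every site read as TGACTCA, the 3 positions on each side gave 24 comparisons. G at the second position after the site was rarer in the peaks, at 14.3% of sites against 21.9% elsewhere (log2 odds ratio −0.75 ± 0.24 SE, with adjusted p = 0.0380, Fisher exact, two-sided). It was the only call, 4.17% of the comparisons, and in the upper rows of the file it was lost (log2 odds ratio −0.24, adjusted p = 0.641, Fisher exact).

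At the position just before the site, A stood at 31.5% of peak sites and 24% of the others (log2 odds ratio 0.54; adjusted p = 0.0527, Fisher exact). C stood there at 23.4% against 30.5% (−0.52; adjusted p = 0.0730, Fisher exact), T at 16.4% against 19.4% and G at 28.7% against 26.1%. With 1 site per peak, A at this position passed (log2 odds ratio 0.64, adjusted p = 0.0145, Fisher exact) and so did C (−0.61, adjusted p = 0.0337, Fisher exact). Both also passed with the comprehensive gene annotation (0.63 and −0.68, adjusted p = 0.00911 for each, Fisher exact). In the upper rows of the file A was 0.75 (adjusted p = 0.0466, Fisher exact), in the lower rows 0.22 (adjusted p = 0.680, Fisher exact). C passed in neither (−0.43 and −0.65). With other sites of like GC neither base passed (0.49 and −0.49, adjusted p = 0.0721 for each, Fisher exact). T at the second position before the site stood at 36.4% against 30.3% (adjusted p = 0.114, Fisher exact). Directly after the site, G was the commonest base in both sets, 33.2% of peak sites and 33.5% of the others. At the third position after the site, A stood at 21.3% against 27.8% and C at 28.3% against 22.2% (adjusted p = 0.0730 for each, Fisher exact). The third position before the site gave no adjusted p under 0.626 (Fisher's exact test).

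The 27 bp around the nearest site show these positions at genes chosen after their values were seen, written on the strand that reads TGACTCA, with the site in capitals.
Bach2, chr4:32376217-32376243, plus strand: tacctccagaTGACTCAtccctatatt
Gfi1, chr5:107754943-107754969, minus strand: gctgctcacaTGACTCActtcaatagt
Nfkbia, chr12:55474116-55474142, plus strand: ttcacacccaTGACTCAgcacctcatc
Tnip3, chr6:65516886-65516912, minus strand: tcatgacccaTGACTCAtagtttaaag
Prdm1, chr10:44434862-44434888, plus strand: gggccaatccTGACTCAgcacttggca
Ets1, chr9:32726614-32726640, plus strand: tttgactgggTGACTCAattagtttaa
Cd47, chr16:49840397-49840423, plus strand: taaattcttaTGACTCAagctgactcc
Rasgrp1, chr2:117400179-117400205, plus strand: tctcttccttTGACTCAgctgggtctg
A preceded the site at Bach2, Gfi1, Nfkbia, Tnip3 and Cd47, whereas C preceded it at Prdm1, G at Ets1 and T at Rasgrp1. Over all 286 sites A stood there at 31.5%, so these picked stretches overstate its share. The second base after the site was G at Cd47 and a different base in the other 7 stretches.

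Partner sequences at a fixed gap were then searched, since AP-1 acts at composite elements with IRF, NFAT, ETS and RUNX factors. Cores of IRF (GAAA), of ETS and NFAT (GGAA), of RUNX (TGTGGT), of GATA (GATAA) and of KLF (CACCC) and the nuclear receptor hexamer were tested in both orientations and at gaps of 0 to 20 bp. None of the 252 combinations passed (0% by Fisher's exact test, with 8 at an unadjusted p under 0.05). The AP-1 peaks thus gave no spacing that could be told from AP-1 sites elsewhere at this number of sites.

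The next comparison asked whether other motifs separated the AP-1 peaks from distal peaks with neither motif, with AP-1 letters masked. None of 26 motifs did (0% by Fisher's exact test, with 1 at an unadjusted p under 0.05). The single nuclear receptor hexamer AGGTCA stood in 18% of the AP-1 peaks (interval 13.5 to 23.3) and 19.2% of the peaks with neither motif (log2 odds ratio −0.11, interval −0.63 to 0.40). It stood in 27.7% of all deposited peaks. GATA (A or T, then GATAA), the motif of the TH2 regulator GATA3, stood in 29.4% against 26.95%. RUNX (TGTGGT or TGCGGT) stood in 20% against 20.9%, and STAT (TTCNNNGAA) in 8.63% against 9.67%. STAT6 (TTC and GAA with 4 bp between), the factor activated by IL-4, stood in 7.84% against 6.93%.

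NFAT (TGGAAA), the calcium-regulated partner of AP-1, stood in 15.3% of the AP-1 peaks and 21.1% of the peaks with neither motif, the lone unadjusted p under 0.05 (log2 odds ratio −0.57; adjusted p = 0.936, Fisher exact). IRF (GAAA repeated 2 bp apart), the partner of BATF dimers, stood in 3.92% against 4.49%. CRE (TGACGTCA), a related bZIP motif, stood in 0.392% against 0.0977%, which is 1 peak of 255 against 1 of 1024. The reversed RUNX sequence (TGGTGT or TGGCGT), used as a control, stood in 12.2% against 11.2%, and the reversed GATA sequence in 16.5% against 18.7%. Over all 2080 sequences of 6 bp, none passed against these peaks (0% by Fisher's exact test, with 94 at an unadjusted p under 0.05).

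Set against the 329 DR1 peaks, the AP-1 peaks were poorer in nuclear receptor sequence, and 5 of 26 motifs (19.2%) passed, all lower. DR1 contains the hexamer and the selection removed it, so this contrast describes the selection and nothing is read from it. AGGTCA stood in 66.9% of the DR1 peaks, and the longer monomer site NBRE (AAAGGTCA) in 24% against 5.10% of the AP-1 peaks. Of the 6 bp sequences, 0.529% passed in this contrast, all lower.

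Against their own surroundings the AP-1 peaks stood out, in motifs that did not separate them from the peaks with neither motif. The comparison used 510 windows of 200 bp, 1000 bp to each side of the 255 peaks. Of the 26 motifs, 9 passed (34.6%), 8 of them higher in the peaks. Nuclear receptor sequences led: NBRE stood in 5.10% of the peaks and 0.588% of the flanks (log2 odds ratio 3.18 ± 0.93 SE, with adjusted p = 8.53e-04, Fisher exact). The extended monomer site, which places an A/T-rich stretch before the hexamer, was counted with at most 1 mismatch, the other motifs with none. It stood in 9.41% and 2.35% (2.11 ± 0.52 SE, with adjusted p = 4.54e-04, Fisher exact). AAAGGT stood in 31.4% and 13.7% (1.52 ± 0.27 SE, with adjusted p = 6.13e-07, Fisher exact). AAAGGT had been entered as a reversed NFAT control, but it is also the start of NBRE, so it served as no control. It remained higher in peaks and windows counted only where AAAGGTCA was lacking, 26.3% against 13.1% (1.24 ± 0.28 SE, with adjusted p = 4.88e-05, Fisher exact). The peaks with neither motif held NBRE in 6.15%, the extended monomer site in 9.77% and AAAGGT in 28.4%.

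The hexamer preceded by A or G stood in 25.9% of the peaks against 18% of the flanks (log2 odds ratio 0.67; adjusted p = 0.0395, Fisher exact), and AGGTCA alone in 18% against 11.8% (0.72; adjusted p = 0.0518, Fisher exact). GATA stood in 29.4% against 19.6% (0.77; adjusted p = 0.0175, Fisher exact), and the reversed GATA sequence in 16.5% against 15.3%. KLF (CACACCC), the motif of Krüppel-like factors, stood in 7.45% against 2.75% (1.51; adjusted p = 0.0175, Fisher exact). ETS (GGAAGT after C and then A or C) stood in 5.10% against 1.57% (1.75; adjusted p = 0.0305, Fisher exact). FOX (TATTTAC or TGTTTAC) stood in 8.63% against 4.12% (1.14; adjusted p = 0.0395, Fisher exact). NFY (CCAAT) was lower, 18.4% against 29.2% (−0.87; adjusted p = 0.00751, Fisher exact). RUNX, at 20% against 15.7%, and NFAT, at 15.3% against 15.9%, did not pass. In the peaks with neither motif KLF stood in 4.69%, ETS in 4.49%, FOX in 7.13% and NFY in 22.2%.

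The flanking windows had a median GC content of 44.5% against 43.5% in the peaks, and 28.4% of them were centred in a repeat, where no peak centre was. Against the 365 windows outside repeats 6 motifs passed (23.1%): AAAGGT, NBRE, the extended monomer site, GATA and KLF, higher, and NFY, lower. Within the middle GC range of the AP-1 peaks, 135 peaks against 197 windows, AAAGGT alone passed (3.85%; 27.4% against 12.7%, adjusted p = 0.0242, Fisher exact). The log2 odds ratios of the others there were 2.16 for NBRE, 1.91 for FOX, 1.40 for the extended monomer site, 1.27 for ETS, 1.07 for KLF, 0.88 for GATA, 0.46 for the hexamer preceded by A or G and −0.63 for NFY, with adjusted p from 0.175 to 0.667 (Fisher exact). Of the 6 bp sequences, 14 passed against all 510 windows (0.673%), 7 higher and 7 lower. AAAGGT again led those higher (adjusted p = 4.90e-05, Fisher exact), and CAAAGG, which overlaps it, stood in 26.3% of peaks and 14.7% of flanks. A/T-rich sequences such as AAATAA were among those lower, 13.7% against 28.2%.

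**Figure D2:**
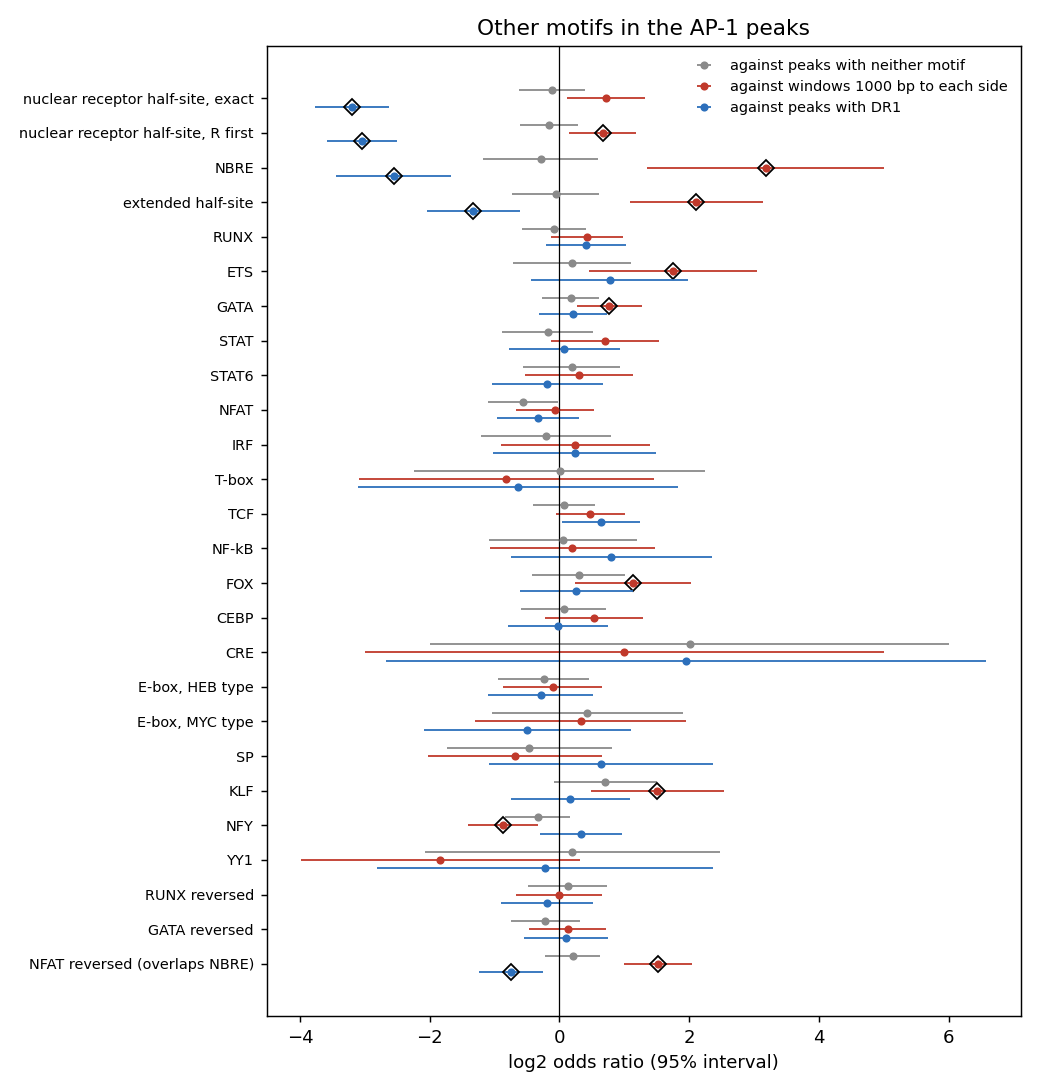
Log2 odds ratio of 26 motifs in the AP-1 peaks (horizontal axis, with 95% intervals) against distal peaks with neither motif (grey), the flanking windows (red) and distal peaks with DR1 (blue). Diamonds mark an adjusted p of at most 0.05: none against peaks with neither motif, 9 against the flanks and 5 against DR1 peaks.

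Weaker DR1 matches followed the same pattern, in a comparison chosen after the data were seen. The selection allows no DR1 with 2 or fewer mismatches, and 106 of the 255 peaks (41.6%) held one with 3, 113 one with 4 and 36 none closer than 5. With AP-1 letters masked, 39.6% of the AP-1 peaks held a DR1 with 3 mismatches, against 16.8% of the 493 flanking windows that passed the same DR1 limit (log2 odds ratio 1.70 ± 0.25 SE, with adjusted p = 1.57e-10, Fisher exact). A scrambled repeat of the same composition, handled in the same way, stood in 11.6% and 8.73% (0.45 ± 0.36 SE, with adjusted p = 0.383, Fisher exact). The peaks with neither motif held the 3-mismatch DR1 in 38.2%, a log2 odds ratio of 0.09 (interval −0.32 to 0.49) for the AP-1 peaks against them. The 48 peaks left out for holding both motifs had an exact DR1 in 2 cases, 1 mismatch in 17 and 2 in 29. AGGTCA occurred 27 times within 50 bp of the centre of the AP-1 peaks and 22 times beyond (log2 ratio interval −0.67 to 1.07). In the peaks with neither motif it numbered 130 and 87 (interval 0.07 to 0.88), and in the DR1 peaks 180 and 84 (0.61 to 1.39). The difference between these classes was not tested.

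In the genome the AP-1 peaks were mostly intronic and lay far from TSSs. Introns held 163 of them (63.9%, interval 57.7 to 69.8), intergenic sequence 86 (33.7%) and exons 6 (2.35%). From peak centre to protein-coding TSS the median was 24.6 kb (quartiles 9.25 and 44.3 kb), against 18.2 kb in peaks with neither motif and 16.5 kb in DR1 peaks. The nearest was 0.239 kb from a TSS of Tnnt3. The farthest inside the limit were assigned to Plcl2 at 98.2 kb, Fndc3a at 98.1 kb and Cd180 at 97.8 kb, and the first ones beyond it to Eci2 at 102.1 kb, Gm5426 at 102.5 kb and Lrch1 at 103.1 kb.

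Within 10 kb of a TSS lay 25.9% of the AP-1 peaks, 34.4% of the peaks with neither motif (log2 odds ratio −0.58 ± 0.23 SE, with adjusted p = 0.0221, Fisher exact) and 38.6% of the DR1 peaks (−0.85 ± 0.26 SE, with adjusted p = 0.00554, Fisher exact). The intronic share was 62.0% in peaks with neither motif (0.12; adjusted p = 0.613, Fisher exact) and 54.7% in DR1 peaks (0.55; adjusted p = 0.0368, Fisher exact). Of the 4 comparisons 75% passed. The intronic call against DR1 peaks was lost with protein-coding genes only (log2 odds ratio 0.34, adjusted p = 0.241, Fisher exact). Against peaks with neither motif, the share within 10 kb kept its direction in the upper rows of the file (−0.37, adjusted p = 0.227, Fisher exact) and in the lower rows (−0.83, adjusted p = 0.0751, Fisher exact), without passing in either.

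Another PPARγ peak lay within 10 kb of 16.9% of the AP-1 peaks, 18.8% of the peaks with neither motif and 18.5% of the DR1 peaks. Every autosome held AP-1 peaks, from 4 of 42 distal peaks outside repeats on chromosome 18 to 22 of 108 on chromosome 1. By share they ran from 7.89% on chromosome 19 to 23.6% on chromosome 8. On chromosome X none of 13 distal peaks outside repeats was one, which allows a share of up to 23.1% (3 counts of 13). That limit lies above the share over all chromosomes, 255 of 1608, so the count of 0 is not a result about chromosome X. The upper rows of the file held 57.6% of the AP-1 peaks, 49.4% of the peaks with neither motif (log2 odds ratio 0.48, adjusted p = 0.0416, Fisher exact) and 60.5% of the DR1 peaks (−0.17, adjusted p = 0.664, Fisher exact).

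**Figure D3:**
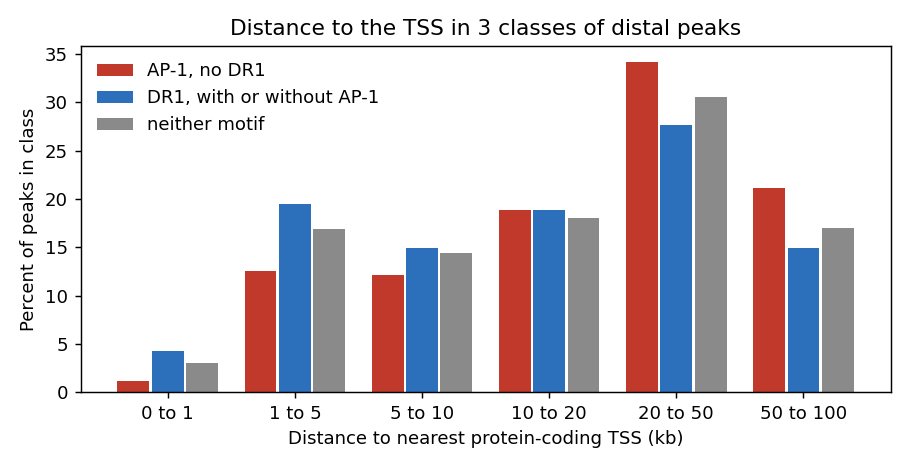
Percent of peaks (vertical axis) by distance to the nearest protein-coding TSS (horizontal axis, kb) for distal peaks with AP-1 and no DR1 (red, 255), with DR1 (blue, 329) and with neither motif (grey, 1024). The AP-1 peaks have the lowest share within 10 kb, 25.9% against 38.6% and 34.4%.

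By nearest TSS the set reached 246 of 21911 protein-coding genes (1.12%), with 2 peaks at 9 genes and 1 at the others. Distance alone made these assignments: 149 peaks lay inside a protein-coding gene, 113 inside the gene they were assigned to and 36 inside a different one. DR1 peaks were assigned to 24 of the 246 genes, and peaks with neither motif to 58. At 171 genes the AP-1 peaks were the only distal peaks outside repeats. The 9 genes with 2 AP-1 peaks included 3 with known parts in lymphocytes. Il10, the gene of an anti-inflammatory cytokine, had its peaks 19.3 and 29.8 kb upstream of the TSS, with sites 34.5 and 49.5 bp from the centre. Tnfsf4, which encodes OX40 ligand, had peaks 19.1 and 57.9 kb upstream. Bach2, a bZIP repressor that competes with AP-1 for its sites in T cells, had peaks 41.2 kb upstream and 65.7 kb downstream of a TSS, both in introns of the gene.

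The other genes with 2 peaks had different roles. Ifi47, an interferon-inducible GTPase, had peaks 1.35 and 2.10 kb from the TSS, 0.747 kb from each other. Inpp4b, a phosphatase of phosphoinositides, had intronic peaks 10.8 and 75.6 kb downstream, and the nearer one held 2 AP-1 sites. Rbms1, Nipa2, Gtdc1 and Plcl2 completed the set, the last with peaks 61.6 and 98.2 kb away.

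Genes of 13 lists, 394 different genes in all, were then looked up, and each count of AP-1 peaks is to be read against the 1.12% of all protein-coding genes. For DR1 peaks that share was 1.42%, and for peaks with neither motif 4.09%. The counts depend on the assignment rule: with a TSS within 10 kb of the peak, the T cell receptor and NF-kB lists had 1 gene each, Fyn and Tnip3, and the other lists had 0, beside 0.297% of all genes. With every TSS within 100 kb the T cell receptor list had 7 genes, the AP-1 and bZIP list 4 and the TH2 list 4, beside 3.09% of all genes. The TH2 list had AP-1 peaks at 4 of 30 genes (13.3%, interval 3.76 to 30.7), with DR1 peaks at 2 and peaks with neither motif at 5. Il1rl1 had its peak 16.4 kb upstream and 470 kb from any other PPARγ peak. Maf, which encodes the bZIP factor c-MAF that drives Il4 and Il10, had one 18.7 kb upstream with AGGTCA in the same window. Il10 is described above, and Gfi1 had a peak 29.1 kb upstream, in an intron of Evi5. Of 12 T cell and TH2 marker genes, among them Cd3e, Cd4, Gata3, Il4, Il5 and Il13, Il1rl1 alone had an AP-1 peak. A peak list gives no expression, so the cell type could not be checked against these markers.

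Inhibitors of MAP kinase and G protein signalling had AP-1 peaks at 3 of 24 genes (12.5%, interval 2.66 to 32.4), with DR1 peaks at 0 of 24, which allows up to 12.5%, and peaks with neither motif at 4. Rasa2, which switches off Ras, had an intronic peak 38.5 kb from its TSS. Dusp10, a phosphatase of JNK and p38, had one 50.8 kb away, and Errfi1, an inhibitor of EGF receptor family kinases, one 54.9 kb away. Each of the 3 windows came within 3 mismatches of a DR1, as did 106 of all 255 AP-1 peaks (41.6%). The AP-1 and bZIP factor list had AP-1 peaks at 2 of 24 genes (8.33%), Maf and Bach2, DR1 peaks at 4 and peaks with neither motif at 5.

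T cell receptor signalling genes had AP-1 peaks at 2 of 45 (4.44%), DR1 peaks at 5 and peaks with neither motif at 10. Fyn, a kinase at the receptor, had an intronic peak 7.14 kb from the TSS, the nearest of all list genes named. Rasgrp1, which activates Ras after receptor engagement, had one 57.3 kb upstream. The NF-kB and TNF list had AP-1 peaks at 3 of 37 genes (8.11%): Tnip3, an inhibitor in the NF-kB pathway, at 8.38 kb, Nfkbia, the inhibitor IκBα, at 18.5 kb, and Zfp36l2, an mRNA decay factor, at 40.045 kb. Chemokine receptors and integrins had 2 of 26 (7.69%), Cd47 at 14.96 kb and Itgb1 at 93.2 kb. The NF-kB and TNF list and the integrin list leave out some family members with AP-1 peaks, such as Tnfsf4, Itga1 and Itga11.

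TH1 genes had an AP-1 peak at 1 of 27 (3.70%), with DR1 peaks at 0 of 27, which allows up to 11.1%. TH17 and regulatory T cell genes had one at 1 of 30 (3.33%), Hif1a at 59.0 kb, with DR1 peaks at 4. Cytokine receptor, JAK and SOCS genes had none of 30, which allows a share of up to 10% (3 counts of 30), with DR1 peaks at 3. Ubiquitous genes had 1 of 30, Actb at 14.0 kb. Genes of other cell types had none of 30, which likewise allows up to 10%.

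The lipid lists hold the best known targets of PPARγ. AP-1 peaks stood at 0 of 31 genes for fatty acid oxidation, which allows up to 9.68%, and at 0 of 32 for lipid storage, uptake and synthesis, which allows up to 9.38%. DR1 peaks stood at 3 and 5 of these genes, and peaks with neither motif at 7 and 5. Over both lists, 8 of 63 genes (12.7%) had a DR1 peak, and the interval for AP-1 peaks ran from 0 to 5.69%. That interval holds the 1.12% of all genes, so the count of 0 is not a result about lipid genes. Over the 9 lists of T cell signalling and regulation, AP-1 peaks stood at 17 of 272 genes (6.25%, interval 3.68 to 9.82), DR1 peaks at 23 (8.46%, interval 5.44 to 12.4) and peaks with neither motif at 47 (17.3%). No open chromatin data were used here, so the share of list genes with accessible chromatin was not tested.

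**Figure D4:**
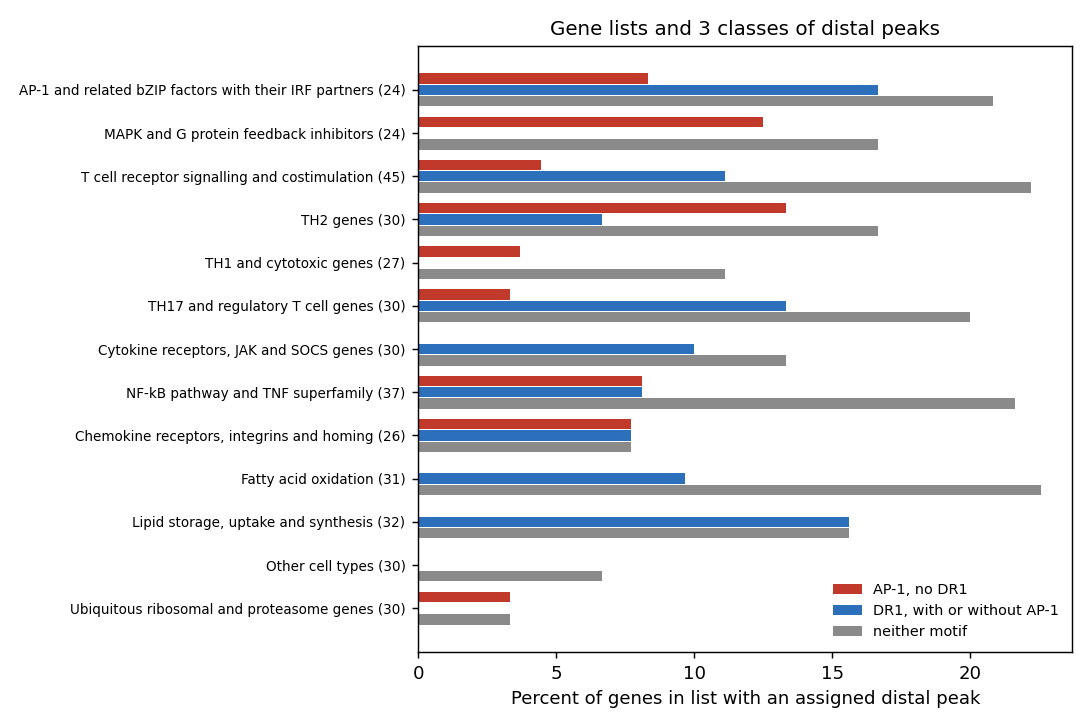
Percent of genes in each of 13 lists (horizontal axis, number of genes in parentheses) with an assigned distal peak holding AP-1 and no DR1 (red), DR1 (blue) or neither motif (grey). AP-1 peaks are found at 13.3% of the TH2 list and at 0 of the 63 lipid genes, beside 1.12% of all protein-coding genes. With a TSS within 10 kb the TH2 count was 0.

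Among genes outside the lists, the following were chosen after their values were seen. Prdm1, which encodes the repressor BLIMP-1, had an AP-1 peak 22.3 kb downstream of its TSS, with the site 13.5 bp from the centre. Ets1, a transcription factor of T cell development, had an intronic one at 30.2 kb with the site 6.5 bp from the centre. Id2, an inhibitor of E proteins, had one at 58.5 kb, in a window with AGGTCA and a site 92.5 bp off the centre. The MAP kinase cascade genes Braf, a kinase, and Ksr1, a scaffold, had intronic peaks at 10.96 and 16.2 kb. Bcl2, a survival gene, had one in an intron at 85.9 kb, again with AGGTCA. Srgn, a proteoglycan of granules, had one at 1.15 kb with 2 AP-1 sites and AGGTCA. Peli1, a ubiquitin ligase, had one at 11.5 kb whose nearest site lay 1.5 bp from the centre.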

How the data were processed

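Bowtie2, the build mm10 and HOMER are named in the submitters' processing notes. Per the file headers, each peak needed 8 tags (false discovery rate 0.001) and 4 times the tag density of the input. The score column of the deposited file is 1 in every row, so peaks were not ranked. Genes and TSSs came from the basic set of GENCODE vM21, and sequence and repeat masking from GRCm38. Motifs were searched on both strands with AP-1 letters masked. Shares were tested with Fisher's exact test, two-sided, and adjusted by the Benjamini-Hochberg method within each family at 0.05. Intervals are Clopper-Pearson for shares and Wald for odds ratios. The share that a count of 0 is said to allow is instead 3 counts over the number looked up. It is lower than the Clopper-Pearson limit, which is 11.6% for 0 of 30. Up to 6 genes per list, nearest first, the 12 genes with the most AP-1 peaks and all motifs that passed were named; some of these are given only as counts, and a few are not reported here. The peak set, the 26 motifs and the 13 lists were chosen with earlier results of these data known. The tests were tried on simulated data. Analyses used Python 3.11.15 and numpy 2.4.6.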

Additional observations from a re-analysis of the deposited data

How the results depend on the processing

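No call of the main results changed direction within its own comparison. The cause of each change below was not tested beyond what its construction shows. The set fell to 149 peaks with DR1 excluded at up to 3 mismatches, as a stricter exclusion must. It was also 149 with a 100 bp window, which narrows the search for AP-1 and for DR1 alike. That set can therefore hold peaks that are not among the 255. Calls among motifs numbered 5 against DR1 peaks and 9 against flanking windows, and, chosen after seeing the data, 6 outside repeats and 1 at like GC, with fewer windows. Calls among 6 bp sequences numbered 14 with AP-1 unmasked, 11 against DR1 peaks and 14 against flanking windows. The classes were split by AP-1 and by DR1. Calls with AP-1 unmasked or against DR1 peaks therefore describe the selection, and nothing is read from them. Base calls numbered 3 with 1 site per peak, 2 in the lower rows and 3 with the comprehensive annotation, chosen after seeing the data. Location calls numbered 0 in the lower rows. Genes numbered 65 with a TSS within 10 kb and 677 with any TSS within 100 kb. A stricter peak threshold was not run, since the score is 1 throughout.

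Several log2 values that had not passed in the main results changed sign. With the file split at its middle row, the AP-1 position ratio of 0.30 was 0.52 in the upper rows and −0.017 in the lower. It passed in the upper rows (p = 0.0245, exact binomial test). The intronic share against peaks with neither motif (0.12) was −0.28 in the lower rows and −0.14 with protein-coding genes only. In the upper rows NBRE (−0.29) was 0.17, RUNX (−0.080) 0.029, G just before the site (0.19) −0.12 and T at the second position after it (0.25) −0.20. In the lower rows that T was 0.81 and passed (adjusted p = 0.0443, Fisher exact). Just after the site, C (0.07) was −0.040 with 1 site per peak and −0.30 in the lower rows, and G (−0.02) was 0.064, 0.42 and, with other sites of like GC, 0.014. STAT (−0.18) was 0.027 in a 400 bp window. Against all flanking windows, those outside repeats and those of like GC, in that order, AGGTCA (−0.11) was 0.72, 0.72 and 0.62, NBRE 3.18, 2.70 and 2.16, RUNX 0.43, 0.56 and 0.23, and STAT 0.70, 0.70 and 0.11. Against DR1 peaks RUNX was 0.41 and STAT 0.079.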
